A study of Caenorhabditis elegans with 3 samples.

Results

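Chromosome IV held 437 of the 2932 regions called in a chromatin immunoprecipitation and sequencing (ChIP-seq) library for LEM-2. All regions listed on this chromosome were taken, irrespective of their score, and the 58 of 415 control regions listed on it served as background. The DNA came from formaldehyde cross-linked, mixed-stage embryos of N2, the wild-type *C. elegans* strain, without further allele or treatment. The LEM-2 library was made with a rabbit antibody against the amino terminus of LEM-2, and the background library with a non-specific immunoglobulin (control IgG) from another extract and with other versions of the extraction and precipitation protocols. Each antibody had 1 library, and a mixed-stage embryo population pools all cell types, so that antibody, extract and protocol cannot be told apart and no replicate error could be calculated. The input library was not analysed here.

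LEM-2 spans the inner membrane of the nuclear envelope. Its LEM domain binds the chromatin protein BAF-1, and its position at the membrane depends on lamin, so DNA recovered with LEM-2 is taken as DNA close to the nuclear periphery. *C. elegans* chromosomes are holocentric and have no single centromere. Their outer parts are nevertheless called arms, since they recombine more often and carry more repetitive DNA and fewer essential genes than the middle. Here the arms are the outer 4 Mb at each end of chromosome IV, and the remaining 9.48 Mb are the center. The length of the chromosome, 17.5 Mb, is the highest end position listed on it for LEM-2 or control IgG. Positions are as deposited with 1-based starts, and the genome build of the lists is not given in the sources used here, so no gene or repeat was assigned to a region.

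The 437 LEM-2 regions covered 687 kb, or 3.93% of chromosome IV, whereas the 58 control IgG regions covered 77.0 kb, or 0.440%. The share of bases inside called regions is called occupancy below. The study used this word for its LEM-2 subdomains, which are much broader than the regions called here. Its values are therefore not comparable with these, and called regions need not cover all sequence associated with LEM-2. The interval given with an occupancy is the exact Poisson 95% interval of the number of regions, scaled to occupancy. This interval covers counting error only, and since neighboring regions are not independent it is too narrow. Chromosome IV makes up 17.6% of the sequence spanned by the lists and held 14.9% of LEM-2 regions and 13.8% of the bases in them. The lists themselves hold no read numbers. The methods of the study give more aligned reads for LEM-2 than for control IgG, from an alignment made for other profiles, and no value set between the lists here is adjusted for depth.

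The first comparison was between the 2 arms. The left arm held 307 LEM-2 regions and the right arm 106, while 24 lay in the center. Occupancy was 12.3% on the left arm (interval 11.0% to 13.8%) and 3.75% on the right arm (3.07% to 4.54%), a ratio of 3.29. The intervals of the arms did not overlap. The center had an occupancy of 0.459% (0.294% to 0.684%), below both arms. Of the 413 regions on either arm, 74.3% were on the left (exact binomial 95% interval 69.8% to 78.5%). For regions as listed, the difference came mainly from their number, which was 2.90 times higher on the left, and the mean length was 1.13 times higher. In terms of covered bases, 71.8% of the LEM-2 total on chromosome IV lay on the left arm, 21.9% on the right arm and 6.34% in the center.

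The arms were nearly equal in the control IgG list. It had 17 regions on the left arm and 17 on the right arm, with occupancies of 0.553% (0.322% to 0.886%) and 0.555% (0.324% to 0.889%) and a ratio of 0.996. The share of its arm regions on the left was thus 50%, with an exact binomial interval of 32.4% to 67.6%, which lies below that of LEM-2. The center held 24 control regions at an occupancy of 0.344% (0.221% to 0.512%). Per compartment, LEM-2 regions covered 22.3 times as many bases as control regions on the left arm, 6.75 times on the right arm and 1.33 times in the center.

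The position profile within each arm was then examined in windows of 500 kb, counted inward from the chromosome end. On the left arm, occupancy was 8.87% in the outermost window and 13.1% in the next. The highest value of the chromosome was 25.4%, with 74 regions, between 1.0 and 1.5 Mb from the left end. The next 3 windows inward had 16.7%, 16.8% and 11.6%. Between 3.0 and 3.5 Mb the value was 3.76%, with 11 regions against 38 in the window before it, and between 3.5 and 4.0 Mb it was 2.36%, the lowest of the arm. The left arm therefore had its densest stretch inside the arm, not at its tip, and its outer 3 Mb held 93.8% of its LEM-2 bases. The corresponding share of the right arm was 82.6%.

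The right arm had a flatter profile. Its 3 outermost windows had occupancies of 5.33%, 5.45% and 5.14%, the second being the highest of the arm. Further inward the values were 2.95%, 4.30%, 1.73%, 2.15% and 2.98%, and the lowest of these, between 2.5 and 3.0 Mb from the right end, rested on 7 regions. No window of the right arm reached the 8.87% of the outermost left window. At equal distance from the end, the ratio of left to right was 1.66 in the outermost window, 2.40 in the next and between 3.91 and 6.71 in the 4 windows from 1.0 to 3.0 Mb. In the last 2 windows it was 1.75 and 0.792. The counting intervals of the arms did not overlap in the 5 windows from 0.5 to 3.0 Mb and overlapped in the other 3. In the outer 3 Mb as a whole, the left arm had 15.4% (13.7% to 17.3%) and the right arm 4.15% (3.32% to 5.12%). Between 3 and 4 Mb the arms held 20 regions each, with 3.06% on the left (1.87% to 4.73%) and 2.56% on the right (1.57% to 3.96%). Control IgG occupancy was at most 1.29% in any of these 16 windows, reached between 1.5 and 2.0 Mb from the left end.

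**Figure D1:**
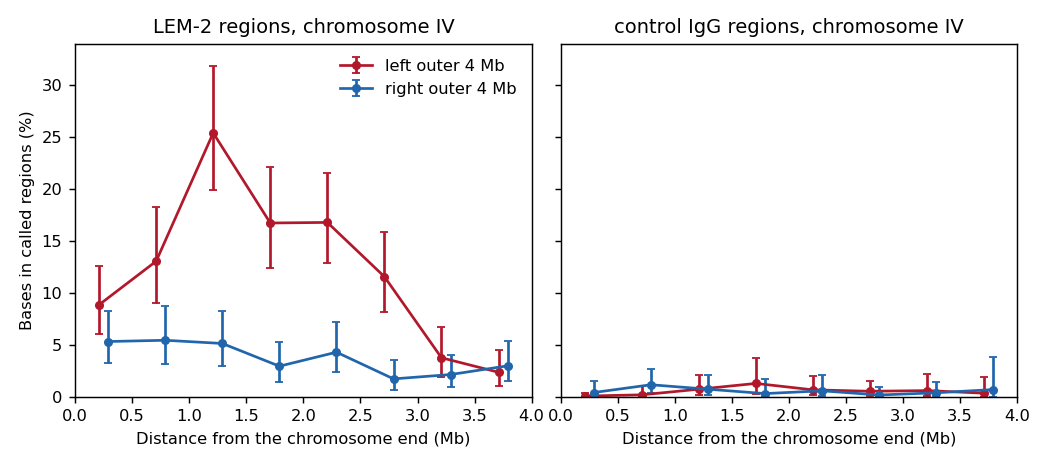
Percentage of bases in called regions (y axis) in 500-kb windows against distance from the chromosome end (x axis, Mb) for the left and the right arm of chromosome IV, LEM-2 on the left and control IgG on the right. Bars are exact Poisson 95% intervals of the region number, scaled to occupancy. The left arm peaks at 25.4% between 1.0 and 1.5 Mb, the right arm stays at or below 5.45%, and control IgG stays at or below 1.29% on both arms.

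**Figure D2:**
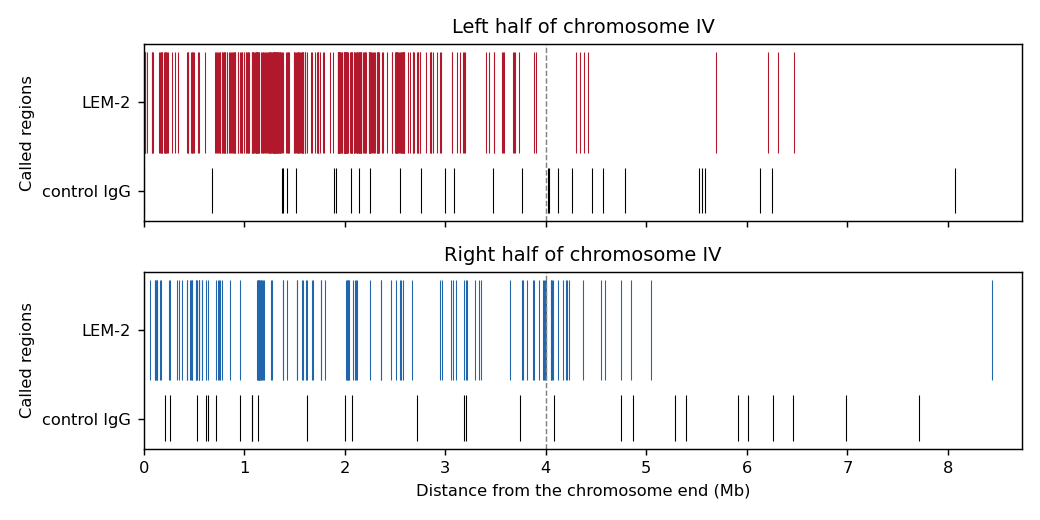
Midpoint of every LEM-2 region (tall colored lines) and every control IgG region (short black lines) by distance from the chromosome end (x axis, Mb), with the left side of chromosome IV above and the right side below. The dashed line marks the 4 Mb limit of the arms. LEM-2 regions crowd on the left arm out to about 3 Mb, are spaced along the right arm, and continue past the dashed line on the right more than on the left.

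For a finer view, the same regions were counted again with each arm divided into 40 tiles of 100 kb. On the left arm, 39 tiles held at least 1 LEM-2 region and 12 held 10 or more, with a median of 6 per tile. On the right arm, 33 tiles held a region and 1 held 10 or more, with a median of 2. The fullest left tile, starting 2500 kb from the end, held 20 regions, and the fullest right tile, starting 1100 kb from the end, held 12. Control IgG regions occurred in 16 left tiles and 13 right tiles. When the LEM-2 bases of each side of the chromosome were added up from the end toward the middle, 50% were reached at 1565 kb on the left and 1682 kb on the right. The point of 90% lay at 2914 kb on the left and 4199 kb on the right. The left domain was thus denser, and 90% of its bases lay nearer the end. LEM-2 regions on the right were fewer, and a larger share of their bases lay farther in. These are shares of unequal totals, and between 3 and 4 Mb each arm held 20 regions.

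The borders of the center were examined next. The first 1 Mb inside the left limit held 4 LEM-2 regions (occupancy 1.08%, interval 0.295% to 2.77%), and the first 1 Mb inside the right limit held 14 (2.29%, interval 1.25% to 3.84%), so these intervals overlapped. On the left, 6138 of the 10819 bp covered belonged to a single region, so that occupancy and its interval rest largely on it. Together both stretches contained 18 of the 24 regions of the center. The other 6 were scattered over the inner 7.48 Mb, where occupancy was 0.131% (0.0482% to 0.286%). The control IgG list held 14 regions in this inner stretch, with an occupancy of 0.234% (0.128% to 0.392%). In the middle of chromosome IV, LEM-2 regions were thus fewer than background regions, and the intervals of both occupancies overlapped.

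Spacing was described by the gap from the end of a LEM-2 region to the start of the next, with each gap assigned by its midpoint. Gaps were short on the left arm, with a median of 3566.5 bp over 306 gaps (exact order-statistic 95% interval 2816 to 4857 bp). On the right arm the median was 15393 bp over 105 gaps (10852 to 28063 bp), and in the center it was 49233 bp over 25 gaps (35991 to 160911 bp). The quartiles were 1204 and 11177 bp on the left arm and 5297 and 41068 bp on the right arm. Gaps under 10 kb are called small here, gaps of 10 to 100 kb medium and gaps of 100 kb to 1 Mb large. These limits are taken from the study, which applied them to gaps between its broader LEM-2 subdomains and not to gaps between MACS regions. Small gaps made up 72.2% of left gaps and 38.1% of right gaps. Medium gaps made up 26.8% of left gaps and 53.3% of right gaps, and large gaps numbered 3 on the left arm and 9 on the right arm. Large gaps together took 459 kb of the left arm and 1508 kb of the right arm. The very shortest gaps also differed between the arms. On the left arm 110 of 307 regions (35.8%) had a neighbor closer than 1 kb, and on the right arm 12 of 106 (11.3%).

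**Figure D3:**
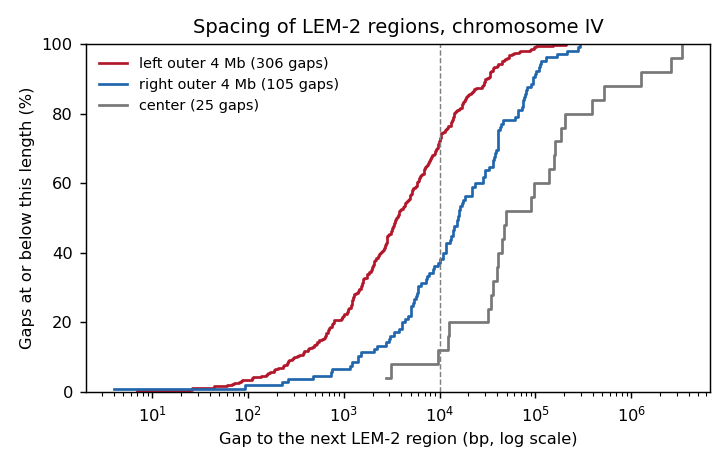
Cumulative percentage of gaps (y axis) at or below a given length (x axis, bp, log scale) between LEM-2 regions on the left arm, the right arm and in the center of chromosome IV. The dashed line marks 10 kb, below which 72.2% of left gaps, 38.1% of right gaps and 12% of center gaps fall.

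The longest gaps of the left arm were at 3201656 to 3408316 (207 kb), 3734469 to 3885753 (151 kb) and 2961648 to 3062611 (101 kb). All of these lay in its inner part, and the last of them coincided with the step in occupancy near 3 Mb. On the right arm the longest were at 13836458 to 14127885 (291 kb), 14530733 to 14806643 (276 kb) and 15468950 to 15681126 (212 kb). The longest gap of the chromosome, 3384 kb at 9049178 to 12433416, contained 8 control IgG regions. The next, 2576 kb at 6469992 to 9045672, contained 1, and the third, 1268 kb at 4422213 to 5690132, contained 6. The first 2 of these gaps were separated by a single LEM-2 region of 3505 bp at 9045673 to 9049177, which had a score of 122.56.

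To see how regions group, LEM-2 regions were joined across gaps under 10 kb. On the left arm this gave 86 blocks, of which 50 contained at least 2 regions. The right arm gave 66 blocks, of which 21 contained at least 2. Blocks of 5 or more regions numbered 20 on the left arm and held 64.2% of its regions, compared with 2 such blocks and 16.0% of regions on the right arm. Regions without a neighbor within 10 kb made up 11.7% on the left arm, 42.5% on the right arm and 83.3% in the center. Blocks of at least 2 regions had a median span of 13.3 kb on the left arm and 8.24 kb on the right arm, and they spanned 26.9% of the left arm and 6.27% of the right arm. Within these blocks, the median percentage of bases inside called regions was 40.6% on the left arm and 36.4% on the right arm.

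The fullest block of the chromosome lay on the left arm at 1225907 to 1362588. It joined 34 regions over 137 kb, 45.4% of which was inside a called region, and no control IgG region fell within it. The next on this arm, at 2092972 to 2164126, had 17 regions over 71.2 kb and contained 1 control IgG region. The third, at 1990042 to 2029950, had 15 regions over 39.9 kb and no control IgG region. On the right arm the fullest block, at 16288065 to 16355472, joined 12 regions over 67.4 kb and contained 1 control IgG region. It was followed by blocks of 5 regions at 17343882 to 17372130 and of 4 regions at 15439254 to 15447511. Control IgG regions numbered 4.25 per Mb on either arm, and most blocks of both arms contained none. The control counts given here therefore do not set the named blocks apart.

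As listed, individual regions were similar in median length on both arms. The median was 1258 bp on the left arm (exact order-statistic interval 1176 to 1380 bp), 1221 bp on the right arm (1107 to 1290 bp) and 1425.5 bp in the center (1078 to 1925 bp), and these intervals overlapped. The upper part of the distribution differed more. Regions of 2000 bp or more made up 63 of 307 on the left arm (20.5%) and 11 of 106 on the right arm (10.4%). The shortest region of the chromosome was 704 bp and the longest 6670 bp. After merging regions within 1 kb of each other, the medians were further apart, at 1479 bp on the left arm and 1219 bp on the right arm.

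Scores were compared only within the LEM-2 list. The score rises with the significance of a peak: it is −10 multiplied by log10 of the p-value from the peak caller MACS, and the list starts just above 50. The median score was 95.68 on the left arm (85.8 to 104.17) and 78.04 on the right arm (71.53 to 86.64), with intervals that overlapped slightly. In the center it was 80.895 (71.76 to 132.43). Scores of 100 or more were found in 46.9% of left regions and 31.1% of right regions. Of the highest-scoring 10% of the whole LEM-2 list, with scores of 243 or more, 38 lay on the left arm of chromosome IV (12.4% of its regions, exact binomial interval 8.91% to 16.6%) and 5 in the center (20.8% of its 24 regions, interval 7.13% to 42.2%). None of the 106 right regions reached this score. Counted as 3 regions of 106, this allows a share of up to 2.83%, and the exact binomial interval ends at 3.42%. The highest score on the right arm was 239.8, against 797.63 on the left arm.

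**Figure D4:**
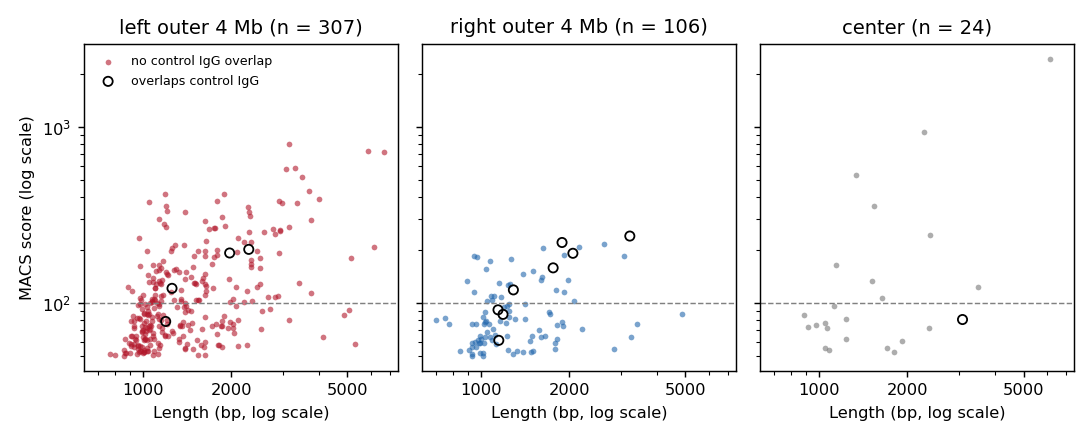
MACS score (y axis, log scale) against length (x axis, bp, log scale) of every LEM-2 region on the left arm, on the right arm and in the center of chromosome IV. Open circles are regions that overlap a control IgG region, and the dashed line marks a score of 100. Scores reach 797.63 on the left arm, 239.8 on the right arm and 2430.15 in the center.

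Longer regions tended to have higher scores. Spearman's rho across regions was 0.51 on the left arm (307 regions) and 0.32 on the right arm (106 regions). These values describe regions of 1 library, which share its depth. Length and score had little rank relation with distance from the end. For length, rho was −0.06 on the left arm and −0.03 on the right arm, and for score it was 0.04 on the left arm and 0.03 on the right arm. For gap length, rho was 0.04 on the left arm (306 gaps) and 0.20 on the right arm (105 gaps). A rank correlation does not capture a fall followed by a rise. On the left arm, median gaps ran between 2514 and 6781.5 bp in the windows out to 3.0 Mb. They were 23916 and 17101 bp in the last 2 windows, which held 11 and 9 gaps. On the right arm they ran between 5871.5 and 37088.5 bp. The inward decline in occupancy on the left arm beyond 3 Mb was thus one of region number, with median lengths of 1634 and 1368 bp in its last 2 windows, compared with 1116 to 1500 bp in the 6 windows before them.

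The longest regions of the left arm were at 1960143 to 1966812, with 6670 bp and a score of 722.84, at 1256692 to 1262841, with 6150 bp and a score of 208.14, and at 1561956 to 1567838, with 5883 bp and a score of 728.64. The highest left score, 797.63, belonged to a region of 3157 bp at 1948566 to 1951722, and the next 2 were the first and the last of the long regions just named. The regions at 1948566 and 1960143 were part of the same block of 13 regions, at 1927368 to 1977839, in which 57.4% of bases were called. None of these 4 regions overlapped a control IgG region, but neither did most regions of the arm, where 4 of 307 did.

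Length and score selected different regions on the right arm. The longest were at 15015126 to 15019986 (4861 bp), 16931583 to 16935003 (3421 bp) and 16311686 to 16314949 (3264 bp), with scores of 87.16, 76.44 and 64.41, beside an arm median of 78.04. The highest-scoring were at 16762268 to 16765493 (score 239.8), 16346644 to 16348535 (score 220.47) and 13493087 to 13495710 (score 216.98). The first 2 of these overlapped a control IgG region, by 1346 and 1575 bp, and the third, which lay close to the inner limit of the arm, did not.

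The center held few regions but the highest scores of the chromosome. A region of 6138 bp at 4416075 to 4422212, just inside the left limit, scored 2430.15 and ranked 11th in the whole LEM-2 list. It was followed by a gap of 1268 kb. Regions at 12637491 to 12639780 (score 930.09) and 6468658 to 6469991 (score 531.52) also stood apart from the center median of 80.895. None of these 3 overlapped a control IgG region, and in the whole center 1 of 24 regions did. The other long regions of the center were the one at 9045673 described above and one of 3092 bp at 12730022 to 12733113, whose score was 80.56. A control IgG region lay entirely within this last region and covered 2874 bp of it, the largest overlap on the chromosome.

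The first LEM-2 region lay close to the left end of the chromosome, at 7273 to 9064 (score 66.48). The last, at 17479687 to 17480616 (score 76.36), set the chromosome length used here, so it lies at the right end by construction. The innermost region of the left arm was at 3904491 to 3905630 (score 57.94) and was followed by a gap of 392 kb. The innermost of the right arm, at 13480046 to 13482029 (score 135.17), crossed the 4 Mb limit and was preceded by a gap of 49.2 kb.

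Few LEM-2 regions overlapped the control list, but the shared bases exceeded what coverage of the chromosome as a whole would give. On chromosome IV, 13 of 437 LEM-2 regions (2.97%, exact binomial interval 1.59% to 5.03%) shared at least 1 bp with a control IgG region, and the shared bases were 2.54% of LEM-2 bases. Control regions covered 0.440% of the chromosome. Conversely, 13 of the 58 control regions (22.4%, interval 12.5% to 35.3%) overlapped a LEM-2 region. The shared bases were 22.7% of control bases, whereas LEM-2 regions covered 3.93% of the chromosome. The cause of this overlap was not tested. By arm, 4 of 307 left LEM-2 regions overlapped the control (1.30%, interval 0.356% to 3.30%) and 8 of 106 right regions did (7.55%, interval 3.31% to 14.3%). Of the control regions, 4 of 17 on the left arm (23.5%, interval 6.81% to 49.9%) and 8 of 17 on the right arm (47.1%, interval 23.0% to 72.2%) overlapped LEM-2. LEM-2 occupancy was 12.3% on the left arm and 3.75% on the right arm, so the whole-chromosome comparison does not describe each arm. Shared bases were not set against coverage arm by arm. The overlapped LEM-2 regions had a median length of 1764 bp and a median score of 121.09, against 1239 bp and 86.595 for the 424 others. A longer region is more likely to share at least 1 bp, and longer regions tended to score higher. Whether the 13 overlapped regions differ beyond that was not tested. The largest overlaps after the one in the center were 2104 bp with the LEM-2 region at 1376179 to 1378478 and 1595 bp with that at 16857864 to 16859627. The longest control IgG regions of the chromosome, at 1913316 to 1917418 (4103 bp) and 13734082 to 13737562 (3481 bp), overlapped no LEM-2 region, and the third was the one of 2874 bp at 12730175 to 12733048. Without the 13 overlapped regions the ratio of left to right LEM-2 occupancy was 3.57.

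Finally, the arms of chromosome IV were set beside those of the other autosomes, as a description without a test. Left arm occupancy was within the range of the 8 arms of chromosomes I, II, III and V, which ran between 6.32% and 15.8% with a median of 12.9%. Right arm occupancy, at 3.75%, was below all 8. The higher arm exceeded the lower arm 3.29-fold on chromosome IV, compared with 1.26-fold on I, 1.25-fold on II, 1.14-fold on III and 2.18-fold on V. The left arm was the higher on IV and I and the right arm on II, III and V. Median gaps on the 8 other arms ran between 3453 and 10274.5 bp, so that the right arm of IV, at 15393 bp, lay above them and the left arm, at 3566.5 bp, among them. Median scores on the other arms were between 83.63 and 109.44, and median lengths between 1231 and 1513 bp. The right arm of IV was slightly below both ranges. For control IgG, the arms of IV had the lowest occupancies of the 10 autosomal arms, and the higher arm exceeded the lower 1.00-fold on IV and at most 1.99-fold, on III.

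**Figure D5:**
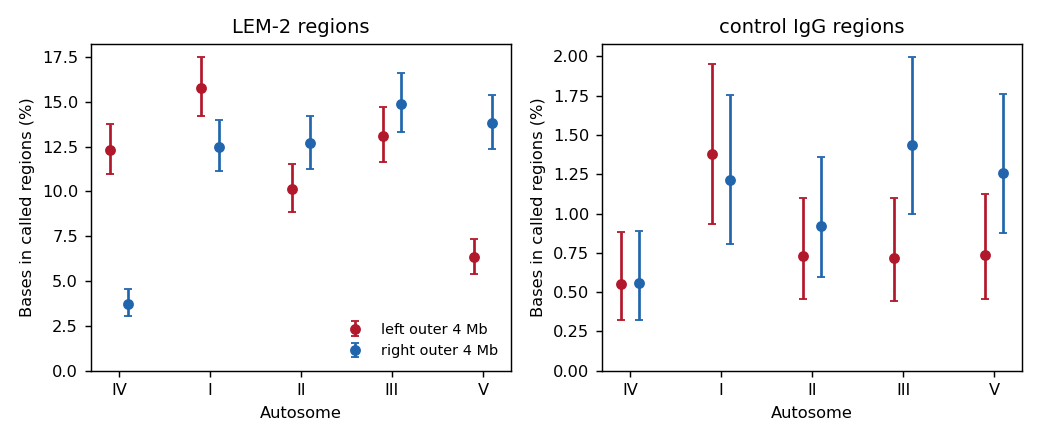
Percentage of bases in called regions (y axis, different scale in each panel) on the left and right outer 4 Mb of the 5 autosomes (x axis), LEM-2 on the left and control IgG on the right. Bars are exact Poisson 95% intervals of the region number, scaled to occupancy. The right arm of IV, at 3.75%, is the lowest LEM-2 value, whereas both control IgG values on IV are close to 0.55%.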

How the data were processed

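Both region lists were deposited as one called region per line, with chromosome, start, end, name and score. Per the labels and the column note, the authors deposited as score −10 multiplied by log10 of the MACS p-value, for 1 library per list. The labels name BWA, and its version, the MACS settings and the genome build of the lists are not given in the sources used here. The study's own profiles used unique reads on ce4, and their processing is not that of these lists. The lists give no read numbers. Aligned reads in the study's methods are more numerous for LEM-2 than for control IgG, and no comparison was adjusted for depth.

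Starts were taken as 0-based and converted. On chromosome IV, 1 control IgG start below 0 was set to the first base. No regions of a list overlapped. Arms were 4 Mb, windows 500 kb, blocks joined gaps under 10 kb, and overlap meant at least 1 bp. A region or gap belongs to the compartment of its midpoint, and bases are divided at the limit. Named regions were the 3 longest and the 3 highest-scoring of each compartment, the outermost and innermost regions, the 3 longest gaps and 3 fullest blocks of each arm, the longest gap of the chromosome, the 3 largest overlaps and the 3 longest control IgG regions, with other named gaps and blocks chosen after their values were seen. With 1 library per antibody no test was made, and intervals (95%) cover counting error only. Members, compartments and measures were chosen with earlier results of these data known. Base and gap arithmetic was tested on simulated lists. Python 3.11, numpy 2.4.6, pandas 2.3.3, scipy 1.17.1 and matplotlib 3.10.9 were used. Alternatives were arms of 3 or 5 Mb, the higher-scoring 50% of each list, removal of control overlap, merging within 1 kb, region numbers in place of bases and overlap of at least 50% of a region.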

Additional observations from a re-analysis of the deposited data

How the results depend on the processing

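Of 53 alternative values for 13 results, 40 stayed within the counting interval of the reported value, or within 1.5 times for the number of regions, and 13 moved beyond it. None turned the direction of the LEM-2 difference between the arms, whose ratio ranged between 2.90 and 5.22. With arms of 3 Mb, left arm occupancy was 15.4% and the arm share of bases 85.5%. With arms of 5 Mb these values were 10.1% and 98.6%. Keeping the higher-scoring 50% of each list left 209 regions on chromosome IV, an occupancy of 7.50% on the left arm and 1.44% on the right arm, and a left to right ratio of 5.22. The median gap was then 5534.5 bp on the left arm and 69531 bp on the right arm. Median length was 1516 bp on the left arm and 1280 bp on the right arm. Merging regions within 1 kb gave a median gap of 6097.5 bp on the left arm and 16826.5 bp on the right arm. Median length was then 1479 bp on the left arm and 1219 bp on the right arm. Under both settings the median lengths of the arms were further apart than as listed. Numbers fall by construction when regions are removed or merged, and occupancy falls when regions are removed. Merging drops the shortest gaps, so the median gap cannot fall, and the arm share of bases cannot fall with wider arms. For the other changes the cause was not tested. Without regions that overlap control IgG, the median gap was 3643 bp on the left arm and 14155 bp on the right arm, within the counting intervals. The control IgG ratio lay between 0.714 and 1.13, within its counting interval. No paired analysis was possible because there was 1 library for each antibody, and leaving out replicates was likewise not an option.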

Other observations

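On the left arm of chromosome IV, the 271 LEM-2 regions with a neighbor within 10 kb had a median score of 98.21 (exact order-statistic 95% interval 86.55 to 105.06), against 75.33 (61.7 to 105.91) for the 36 without one. For the right arm the medians were 77.76 (65.08 to 98.92) for 61 regions with a neighbor and 78.9 (70.98 to 87.16) for 45 without. The intervals overlapped on both arms. Among the regions with a neighbor within 10 kb, the left median lay above the right one, and these intervals also overlapped. On the left arm, median length was 1248 bp for regions with a neighbor and 1355.5 bp for regions without. On the right arm, it was 1259 bp for regions with a neighbor and 1164 bp for regions without. Whether regions with and without a neighbor differ in score or length was not tested, and overlapping intervals do not show that they are alike.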
